A study of Homo sapiens with 18 samples.

Results

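The effect of rapamycin on untransfected HEK-293T cells was followed in 6 of the 18 libraries of the study, 3 from cells given rapamycin and 3 from cells given DMSO. The libraries were chosen by their labels alone, and no measured value entered the choice. The study as a whole concerns a drug-triggered split form of the RNA-cutting enzyme Csy4, and its other libraries come from cells with that enzyme or from cells given grazoprevir, the trigger drug. HEK-293T cells descend from human embryonic kidney and make SV40 large T antigen, which binds the tumour suppressor p53. The labels of both groups name no plasmid and no transfection, and each gives 70000 plated cells. Rapamycin was labelled at 0.1 µM. DMSO, the usual solvent of such drugs, was labelled at 0.5 µM, without saying whether that figure is an amount of solvent. A second reference group of 3 untransfected libraries had grazoprevir, an inhibitor of the hepatitis C virus protease, at 0.5 µM. The duration of treatment is not given in the sources used here. Nothing in the labels states that a group's 3 libraries are separate cultures. Every p-value below rests on the spread between libraries of a group, estimated over all 18 libraries, and that spread may be technical. The 3 rapamycin columns carry 1 shared name, so those libraries are called A, B and C and are not tied to numbered samples.

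Rapamycin binds the small immunophilin FKBP12, encoded by *FKBP1A*, and the pair then docks onto the kinase mTOR. In complex 1 (mTORC1) the kinase senses amino acids, growth factors and energy through the Rag and RHEB GTPases and the TSC complex, and it promotes translation through S6 kinase and the 4E-BP proteins. mTORC1 is also known to raise the output of the transcription factors ATF4 (amino acid supply), SREBP (lipid synthesis) and HIF-1 (glycolysis), and to hold back TFEB, which drives lysosome genes. The comparison asks which messenger RNAs differ when this pathway is exposed to its classical inhibitor.

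Levels are given as CPM, counts scaled to a common library total after adjustment of each total by edgeR's TMM factor. A gene is called at a Benjamini-Hochberg adjusted p below 0.05 in edgeR's quasi-likelihood test. The DMSO libraries held 14695997 to 19095828 counts, the rapamycin libraries 14000677 to 15415103 and the grazoprevir libraries 13711585 to 15827968. Within a group, a library lay 0.1 to 0.103 log2 units from the other libraries with DMSO and 0.0982 to 0.109 with rapamycin (root mean square over genes), and none of the 6 stood apart. With grazoprevir this distance was 0.108 to 0.146, largest in replicate 1. The HEK-293 marker list had 11 of 12 genes at a testable level, among them *VIM*, *IRS4*, *LIN28B* and *PAX2*, and *NEFM* was at 0. Markers of other cell types were low. Their summed levels were 61.2 to 64 CPM with DMSO and 41.4 to 42.4 CPM with rapamycin for 11 fibroblast genes, 16.6 to 16.7 and 9.68 to 10.9 CPM for 10 genes of epithelial carcinoma lines, and 3.92 to 4.67 and 2.97 to 3.71 CPM for 11 blood genes. *FAP*, *CD3E*, *CD3D*, *MS4A1* and *HBB* were at 0 in all 6 libraries. The sums of all 3 lists were lower with rapamycin, without overlap of the 2 groups. In these lists *COL1A1*, a fibrillar collagen (log2 fold change -1.02 ± 0.11, SE), and *CDH1*, the epithelial cadherin (-1.01 ± 0.13), were among the genes called lower, and *KRT17*, a keratin, was called higher (1.54 ± 0.53, at 0.476, 0.438 and 0.275 CPM against 0.728, 1.72 and 1.1 CPM), a call lost without DMSO replicate 3 or rapamycin replicate B. The part of these genes in the results below was not tested, and in bulk RNA fewer cells of a type and less RNA per cell cannot be told apart.

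Rapamycin moved many genes by small amounts. Of 17966 tested genes, 5963 were called (33.2%), 3084 higher (17.2%) and 2879 lower (16%). Changes of at least 2-fold were uncommon: 177 genes rose (0.985%) and 356 fell (1.98%) by that much, and 78.4% of all calls were of a size below 1.5-fold. The median log2 fold change of all tested genes was 0.016. Against a threshold of a 1.2-fold change in place of no change, 1406 genes were called, 591 higher and 815 lower. The 3 rapamycin libraries lay above or below all 3 DMSO libraries in 43.6% of genes, and the counts of gene groups below are to be read against these shares.

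**Figure D1:**
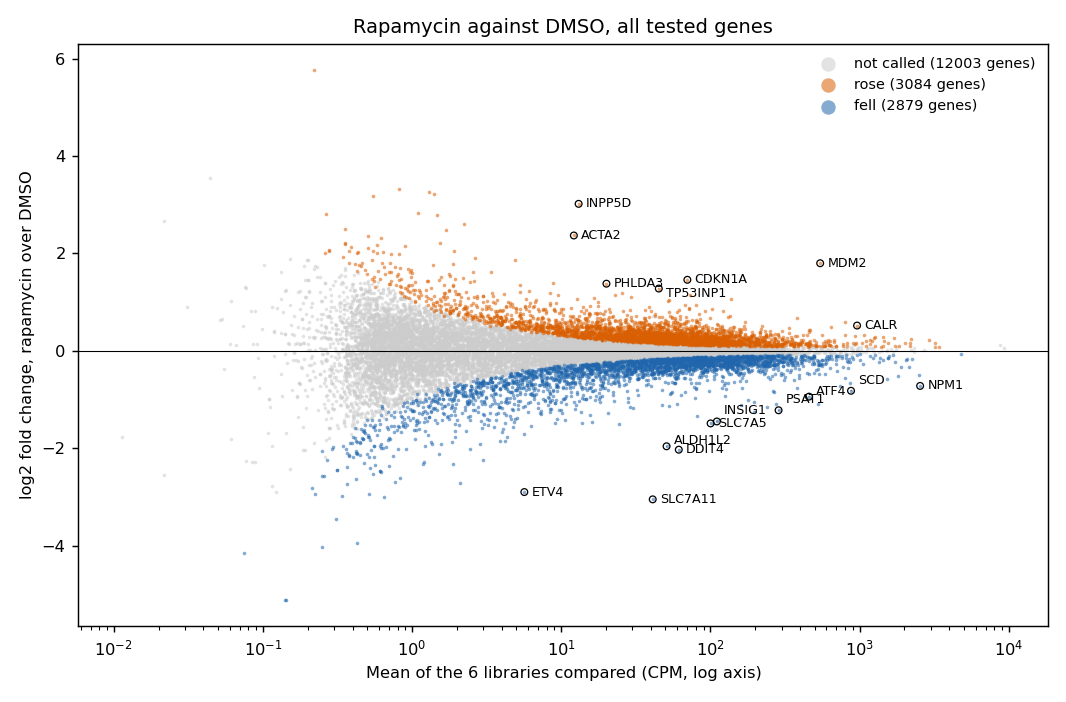
Log2 fold change of rapamycin over DMSO (vertical axis) against the mean CPM of the 6 libraries (horizontal log axis), 1 point per tested gene, orange for the 3084 genes that rose, blue for the 2879 that fell and grey for genes not called. The circled genes include the largest rise, *INPP5D* at 3.02, and the largest fall, *SLC7A11* at -3.05, among well-measured genes, and most coloured points lie close to 0.

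The largest rise among genes with at least 5 CPM was that of *INPP5D* (chromosome 2, 233060342 to 233207903, GRCh38), which encodes SHIP1, an inositol phosphatase that removes the lipid messenger made by PI3 kinase. It stood at 3.07, 2.38 and 3.16 CPM with DMSO and at 20.8, 26.6 and 22.4 CPM with rapamycin, 8.1-fold higher (log2 fold change 3.02 ± 0.15, edgeR adjusted p = 3.69e-30). The groups were far apart, as they were for the actin gene *ACTA2* of smooth muscle (chromosome 10, 88935074 to 88991337), with 4.6, 2.94 and 4.19 CPM against 20.6, 20.6 and 20.1 CPM (2.37 ± 0.14). Genes were named among the largest changes only if their groups lay fully apart. The *ACTA2* locus overlaps that of *FAS*, and the strand of the reads is not stated, so reads in the overlap cannot be told apart. *MDM2* (chromosome 12, 68808172 to 68850686), the ubiquitin ligase that degrades p53, went from 246, 233 and 248 CPM to 848, 824 and 869 CPM, 3.49-fold higher (1.80 ± 0.036, edgeR adjusted p = 1.03e-54). Other large rises were *CDKN1A*, the CDK inhibitor p21 (1.46), *PHLDA3*, an inhibitor of AKT (1.38), *TP53INP1*, a p53 target linked to autophagy (1.28), *IFIH1*, a sensor of double-stranded RNA (1.21), and *OASL*, an interferon-stimulated gene (1.19). *MAMDC4* (1.39), *ITIH4* (1.35), *SAMD11* (1.19) and the zinc finger gene *ZNF582* (1.17) completed the 12 largest.

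The largest fall was in *SLC7A11* (chromosome 4, 138164097 to 138242349), the cystine transporter that supplies glutathione synthesis. Its level was 72, 73.7 and 74.3 CPM with DMSO and 8.74, 9.4 and 8.33 CPM with rapamycin, 8.3-fold lower (log2 fold change -3.05 ± 0.084, edgeR adjusted p = 2.4e-41). *ETV4*, an ETS transcription factor downstream of ERK, fell 7.48-fold, from 9.95, 10.6 and 9.41 CPM to 1.16, 0.993 and 1.81 CPM. *DDIT4* (chromosome 10, 72273924 to 72276036), also known as REDD1, restrains mTORC1 through the TSC complex. It went from 97.9, 98.3 and 99.5 CPM to 24.3, 26.1 and 22.2 CPM (-2.03 ± 0.065, edgeR adjusted p = 4.8e-41). *ALDH1L2*, a mitochondrial enzyme of folate metabolism, was 3.89-fold lower, with 85.1, 77.7 and 79.8 CPM against 21.9, 21.9 and 18.7 CPM. In all of these genes the groups were separated by several times their internal spread, and groups without overlap were a condition of their choice. *CXCR4*, a chemokine receptor (-1.86), *TUBA4A*, an alpha tubulin (-1.85), *LBH* (-1.76), *NTRK2*, a neurotrophin receptor (-1.71), *DENND1C* (-1.61), *ULBP1*, a ligand of a natural killer cell receptor (-1.57) and *IGSF10* (-1.57) also fell. So did *ASNS*, asparagine synthetase (-1.77), which is shown again below for its promoter motif.

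The mRNAs of the drug's own targets hardly moved. *FKBP1A* stood at 374, 375 and 365 CPM with DMSO and 355, 352 and 351 CPM with rapamycin (log2 fold change -0.08 ± 0.033, edgeR adjusted p = 0.0756), a separation of the groups that did not pass the test. Of 15 tested immunophilins of the FKBP family, 3 rose and 4 fell (1 and 2 without DMSO replicate 2), and none of the 7 held against a 1.2-fold threshold. *MTOR* itself rose slightly, from 210, 199 and 203 CPM to 229, 231 and 228 CPM (0.17 ± 0.042, edgeR adjusted p = 0.00108), a call that ended once the trends with GC content and transcript length were taken out of each library (0.07, adjusted p = 0.123). *RPTOR*, the mTORC1 scaffold, was at 0.16 with an edgeR adjusted p of 0.0496, and its call ended in most alternatives, at 0.01 with the length and GC correction. *RICTOR*, the scaffold of mTORC2, was at -0.01 (adjusted p = 0.954) and *RHEB*, the GTPase that activates mTORC1, at -0.08 (adjusted p = 0.227). Of the 11 subunits tested, 4 rose and 3 fell (median 0.06, and -0.02 with the length and GC correction), but 1 rose with the length and GC correction and 2 without DMSO replicate 1, DMSO replicate 2 or rapamycin replicate A. The clear changes were falls in *DEPTOR*, an inhibitory subunit of both complexes (16.2, 15.6 and 13.7 CPM to 8.66, 10.8 and 8.72 CPM, -0.69 ± 0.13), and *PRR5L*, which binds mTORC2 (-1.51 ± 0.29).

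Genes that feed amino acid and growth factor signals into mTORC1 moved in both directions. Of 36 tested, 14 rose and 5 fell, with a median log2 fold change of 0.11. *TSC2*, the GTPase activator that switches RHEB off, rose from 74.4, 73.7 and 77.7 CPM to 104, 109 and 107 CPM (0.51 ± 0.054, edgeR adjusted p = 1.61e-12). *SESN1*, a sestrin that restrains mTORC1 when leucine is scarce and a p53 target, rose by 0.76 ± 0.053, while *SESN2*, its relative under ATF4 and p53, stood at 0.18, a call lost with the length and GC correction, without DMSO replicate 1 and without rapamycin replicate C. With *DDIT4* lower, inhibitors of the pathway went both ways, and 3 rises and 3 falls of the list held against a 1.2-fold threshold. In the insulin and PI3 kinase branch 7 of 22 genes rose and 3 fell (median 0.06, and -0.01 with the length and GC correction; 5 fell without DMSO replicate 3 or rapamycin replicate A): *PIK3R2*, a regulatory subunit of PI3 kinase (0.55), *PDPK1*, the kinase that activates AKT (0.33), *AKT2* (0.26) and *INSR*, the insulin receptor (0.27), were higher, and *PIK3CD*, a catalytic subunit, was lower (-0.77). *IRS2*, an adaptor of the insulin receptor, was not called (0.11 ± 0.13, edgeR adjusted p = 0.568).

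Among the effectors of mTORC1 in translation, 5 of 17 tested genes rose and 6 fell (median -0.06, and 0.01 without DMSO replicate 1 or rapamycin replicate C). *EIF4EBP1*, the 4E-BP1 repressor of cap-dependent translation and an ATF4 target, fell from 69.1, 71.4 and 72.8 CPM to 41.8, 41.6 and 35.9 CPM (log2 fold change -0.84 ± 0.06, edgeR adjusted p = 2.25e-20). Its relative *EIF4EBP2* rose by 0.24 ± 0.035, so the 2 repressors moved in opposite directions. *PDCD4*, an inhibitor of the helicase eIF4A that S6 kinase marks for destruction, rose by 0.39 ± 0.041, and *ULK1*, the kinase that starts autophagy, by 0.62 ± 0.078. *RPS6KB1*, which encodes S6 kinase, was not called (-0.07, adjusted p = 0.264). *EIF4A1* was listed at 0 counts in every library although it is active in most cells, and *ALDOA*, a glycolytic enzyme, was at 2.5 to 3.6 CPM with DMSO (named after its values were seen). The table therefore does not follow every abundant mRNA, and the reason was not tested.

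The ATF4 programme of amino acid supply was lower with rapamycin in nearly all of its enzymes. *ATF4* itself (chromosome 22, 39520559 to 39522686), a transcription factor that mTORC1 and the integrated stress response both promote, fell from 590, 617 and 597 CPM to 321, 317 and 303 CPM (log2 fold change -0.94 ± 0.033, edgeR adjusted p = 2.57e-39). Of the 14 genes of serine, proline and one-carbon synthesis, all tested, 13 fell and 1, *SHMT1* (0.21, named after its value was seen), rose, with a median of -0.80. *PSAT1*, the aminotransferase of serine synthesis, fell from 402, 404 and 397 CPM to 176, 165 and 176 CPM (-1.22 ± 0.036), *PHGDH*, the first enzyme of the same pathway, from 333, 320 and 340 CPM to 158, 146 and 142 CPM (-1.15 ± 0.041), and *SHMT2*, which passes carbon from serine to folate in mitochondria, by 0.76 on the log2 scale. The rapamycin libraries did not overlap the DMSO libraries in any of these. Among amino acid transporters 10 of 14 fell and 2 rose (median -0.39), led by *SLC7A11*, *SLC7A5*, the large neutral amino acid exchanger (146, 147 and 152 CPM to 49.3, 57.4 and 51.5 CPM, -1.49 ± 0.05), *SLC38A1* (-0.59) and the glutamine transporter *SLC1A5* (-0.45).

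The mRNAs of enzymes that charge transfer RNA followed the same direction. Of 16 aminoacyl-tRNA synthetases found of 20 listed, 15 fell and 0 rose (median -0.46), and 9 falls held against a 1.2-fold threshold. The 0 rises in edgeR were also 0 at an unadjusted p below 0.05 and 0 with DESeq2. *YARS1*, the tyrosine enzyme, went from 372, 380 and 368 CPM to 178, 176 and 172 CPM (log2 fold change -1.09 ± 0.035, edgeR adjusted p = 2.23e-41), and *IARS1* (-0.66), *NARS1* (-0.57) and *TARS1* (-0.56) fell less. The stress effectors under ATF4 were mixed: 11 of 18 fell and 4 rose (median -0.54), with 2 rises without DMSO replicate 1 or 3 or rapamycin replicate B or C. *STC2*, a secreted stanniocalcin, fell from 123, 111 and 115 CPM to 46.6, 47.3 and 44.9 CPM (-1.33 ± 0.052). Outside the naming rule and chosen after their values were seen, *CHAC1*, which degrades glutathione, was at 2.75, 4.26 and 3.92 CPM with DMSO and 0.51, 0.596 and 0.517 CPM with rapamycin (-2.72 ± 0.33). *GDF15*, a cytokine that both ATF4 and p53 can induce, moved the other way, from 0.37, 0.313 and 0 CPM (12 counts in all) to 2.04, 2.19 and 2.91 CPM (3.26 ± 0.39). These 2 genes mark the ends of the list, and its members do not share 1 direction.

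Some of the lowered genes carry the composite site through which ATF4 with a CEBP partner is known to act, and 4 are shown with that site in capitals. The motif searched was TGATGNAA on both strands of RefSeq promoter windows (250 bases before to 50 after the start, GRCh38.p14), and it was found in 1.76% of the 12604 tested genes with a window. It occurred in 2 of 10 serine and one-carbon genes, 3 of 12 transporters, 2 of 16 stress effectors and 5 of 12 tRNA synthetases with a window. Of these 12 genes 11 fell and 1, *ATF3*, rose by 0.17. Members of the same lists without the site also fell for the most part, 7 of 8, 5 of 9, 9 of 14 and 6 of 7 in the same order. Over all 222 tested genes with the motif 32 rose and 49 fell (median -0.06), and a match is a description of the letters only. *ASNS* (log2 fold change -1.77), also among the large falls above, is shown for its motif after its value was seen. *MTHFD1L* (-0.58) and *AARS1* (-0.51) were chosen for their motif after their values were seen, and *ATF3* was named likewise.
ASNS, chr7:97872453-97872492, minus strand: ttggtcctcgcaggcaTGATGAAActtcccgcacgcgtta
MTHFD1L, chr6:150866341-150866380, plus strand: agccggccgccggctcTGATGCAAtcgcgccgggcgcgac
CHAC1, chr15:40953246-40953285, plus strand, motif reversed: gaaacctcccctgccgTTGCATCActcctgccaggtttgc
AARS1, chr16:70289670-70289709, minus strand, motif reversed: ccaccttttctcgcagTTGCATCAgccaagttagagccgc

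**Figure D2:**
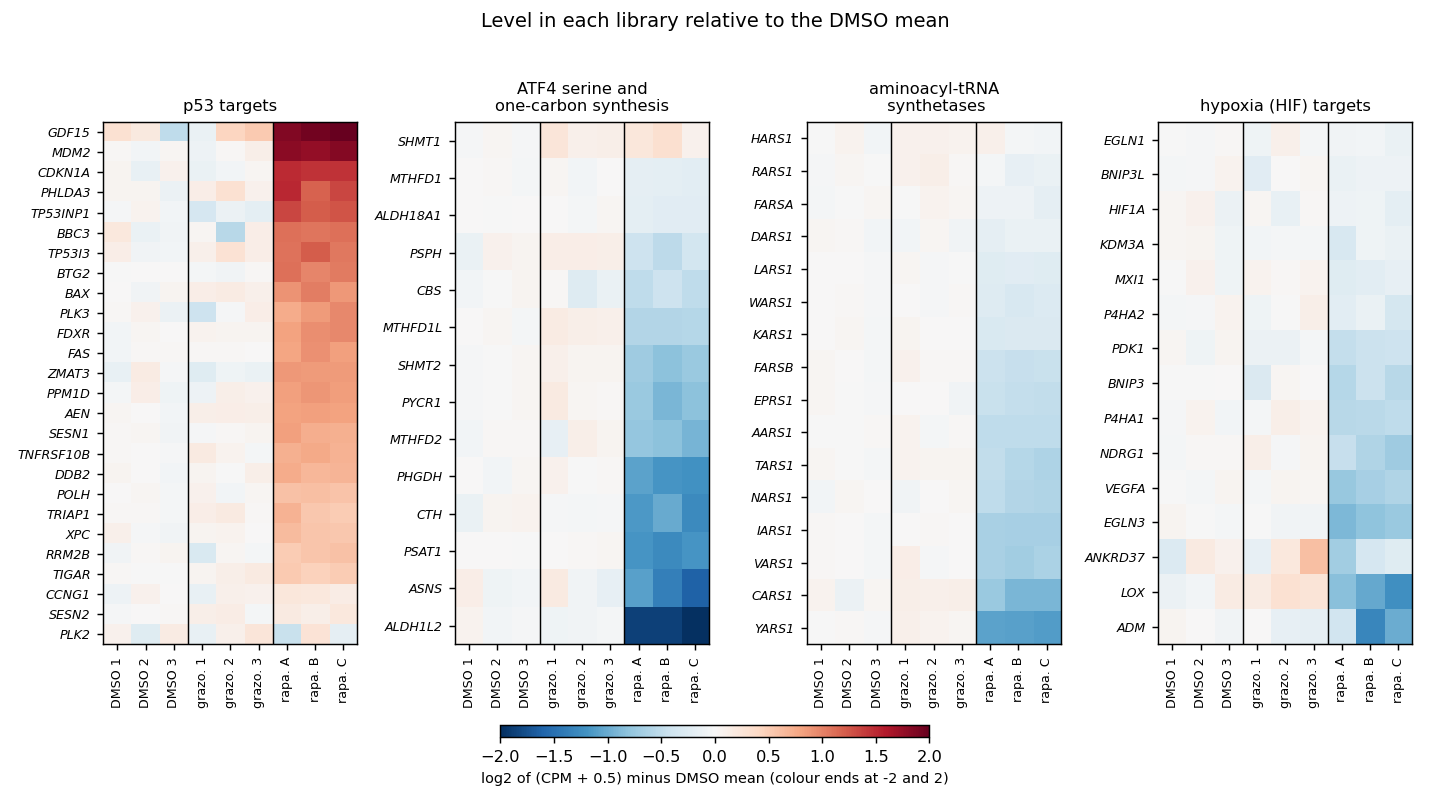
Level of each tested member of 4 gene lists (rows) in the 9 untransfected libraries (columns), as log2 of CPM + 0.5 minus the mean of the 3 DMSO libraries, with red for higher and blue for lower and the colour ending at -2 and 2. In most rows the 3 rapamycin columns are red for p53 targets and blue for the serine, tRNA synthetase and hypoxia lists, with *PLK2* (-0.11) and *SHMT1* (0.21) among the exceptions (abbreviations: grazo., grazoprevir, rapa., rapamycin), while the grazoprevir columns stay near the DMSO columns in most rows.

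Genes of lipid and sugar metabolism fell less steeply. *SREBF1*, which encodes SREBP-1, the driver of fatty acid synthesis, fell from 18.4, 17.3 and 21.4 CPM to 11.1, 12.6 and 12.2 CPM (log2 fold change -0.66 ± 0.11, edgeR adjusted p = 4.21e-07). Of 24 cholesterol synthesis genes, 14 fell and 1 rose (median -0.22), and of 18 fatty acid genes 11 fell and 1 rose (median -0.18). Against a 1.2-fold threshold 7 and 5 of these falls held. *INSIG1*, the sterol sensor that holds SREBP in the endoplasmic reticulum, showed the largest change of these lists, from 162, 166 and 157 CPM to 61.9, 58.7 and 56.8 CPM (-1.45 ± 0.05). Enzymes of the sterol pathway changed less, with *DHCR7* at -0.66, *SQLE* at -0.44 and *HMGCS1* at -0.39. *SCD*, the desaturase that makes oleate, fell from 1120, 1124 and 1115 CPM to 635, 633 and 632 CPM (-0.82 ± 0.028), beside *ELOVL6*, a fatty acid elongase (-0.38), and *ACSL3*, a fatty acid activating enzyme (-0.35).

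In glycolysis 16 of 21 genes fell and 1 rose (median -0.32), and 8 falls held against a 1.2-fold threshold. *HK2*, an inducible hexokinase, went from 163, 158 and 170 CPM to 89.7, 94.5 and 76.5 CPM (log2 fold change -0.92 ± 0.057, edgeR adjusted p = 5.84e-15), and *LDHA*, the lactate dehydrogenase, from 1805, 1846 and 1801 CPM to 1226, 1267 and 1167 CPM (-0.58 ± 0.03). *PGK1* (-0.42) and *GAPDH* (-0.33 ± 0.028), a common reference gene in such experiments, fell as well, and *ACTB*, another reference gene, rose by 0.21 ± 0.029. Among targets of HIF-1, 12 of 15 fell and 0 rose by edgeR, by DESeq2 or at an unadjusted p below 0.05 (median -0.52), including *LOX*, which crosslinks collagen (-1.05), the angiogenic factor *VEGFA* (-0.67), *NDRG1* (-0.59) and *P4HA1*, a collagen hydroxylase (-0.53). *HIF1A* itself was at -0.13 ± 0.047, with overlapping groups and a call that ended with the length and GC correction and without DMSO replicate 1, DMSO replicate 2 or rapamycin replicate C. Purine and pyrimidine synthesis had 10 falls and 3 rises in 20 genes (median -0.11; 1 rise without DMSO replicate 3 or rapamycin replicate A), with *GART*, *PPAT* and *PAICS* of the purine pathway at -0.32, -0.35 and -0.26 and *TYMS*, thymidylate synthase, up by 0.60. The pentose phosphate pathway showed 2 rises and 3 falls in 9 genes, and *PRPS1*, which makes the ribose donor of nucleotides, was at -0.32.

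Factors that assemble ribosomes were lower, while the ribosomal proteins themselves were slightly higher than with DMSO. Of 35 ribosome biogenesis factors, 27 fell and 1 rose (median log2 fold change -0.19), and 9 falls held against a 1.2-fold threshold. *NPM1*, the nucleolar chaperone nucleophosmin, fell from 3171, 3268 and 3068 CPM to 2007, 1918 and 1849 CPM (-0.72 ± 0.029, edgeR adjusted p = 7.4e-34), *DDX21*, a helicase of ribosomal RNA synthesis, from 957, 961 and 933 CPM to 645, 654 and 644 CPM (-0.55 ± 0.029), *GNL3*, nucleostemin, by 0.53 and *NOLC1*, a nucleolar phosphoprotein, by 0.48 on the log2 scale. Of 79 cytosolic ribosomal protein genes, 42 rose and 2 fell (median 0.11), nearly all by little: 1 rise passed a 1.2-fold threshold, and 4 genes fell without rapamycin replicate A. *RPS19*, a protein of the small subunit, went from 395, 395 and 406 CPM to 532, 522 and 514 CPM (0.39 ± 0.035), *RPL13* from 716, 691 and 728 CPM to 898, 905 and 882 CPM (0.33 ± 0.033), and *RPL8* and *RPS2* rose by 0.24 and 0.22. The sum over the family was 64058 to 65943 CPM with DMSO, 66452 to 71436 CPM with rapamycin and 67715 to 69369 CPM with grazoprevir.

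The reading of the ribosomal proteins depends on the reference group and on the processing. Against grazoprevir 13 rose and 12 fell (median -0.00), and the length and GC correction turned this into 47 that rose and 6 that fell (median 0.08), while leaving out rapamycin replicate A left 7 that rose. With the length and GC correction 51 rose and 3 fell against DMSO (median 0.12), near the corrected result against grazoprevir. Both comparisons use the same rapamycin libraries. The fall of the biogenesis factors was present against both, with 29 falls and 1 rise against grazoprevir (median -0.25). Ribosomal protein genes have many processed pseudogenes with near-identical sequence, so their reads may be divided between copies in a way the sources used here do not describe. Of 17 other genes whose mRNAs are known or proposed to belong to the same translational class, translation factors for the most part, 6 rose and 4 fell (median 0.05, and 0.02 without rapamycin replicate A). *TPT1*, a growth-related protein (0.28 ± 0.029), *EIF3F*, a subunit of an initiation factor (0.39), and *EEF1G*, a subunit of an elongation factor (0.17), were higher, and *LDHB*, a lactate dehydrogenase, was lower (-0.23).

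Many of these mRNAs begin with a 5′ terminal oligopyrimidine (TOP) tract, the feature that places their translation under mTORC1. The start was searched for a C followed by 4 pyrimidines at the first base of the RefSeq transcript, and 5.09% of the 12604 genes had it. A tract that begins at any other base was not counted, so genes without a match may still carry one. Of the 17 genes of the translational class above, 11 had a window and 7 of those a match. It was present in 43 of 63 ribosomal protein genes with a window, of which 26 rose and 1 fell (median log2 fold change 0.14), while 8 rose and 1 fell among the other 20 (median 0.06). All 4 biogenesis factors with such a start (*NPM1*, *FBL*, *DDX21* and *TAF1D*, of 29 with a window) fell, of which *FBL* and *TAF1D* are named after their values were seen, and of the other 25 biogenesis factors 18 fell and 1 rose. Over all 641 genes with a TOP start 153 rose and 136 fell (median 0.01). A pair that rose and a biogenesis factor that fell are shown, with the pyrimidine run from the first base in capitals after 10 bases of flank.
RPS19, chr19:41860245-41860274, plus strand: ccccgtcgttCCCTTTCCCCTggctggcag
TPT1, chr13:45341164-45341193, minus strand: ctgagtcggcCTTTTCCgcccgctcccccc
NPM1, chr5:171387839-171387868, plus strand: agcctgcgtcCTTTCCCTggtgtgattccg

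**Figure D3:**
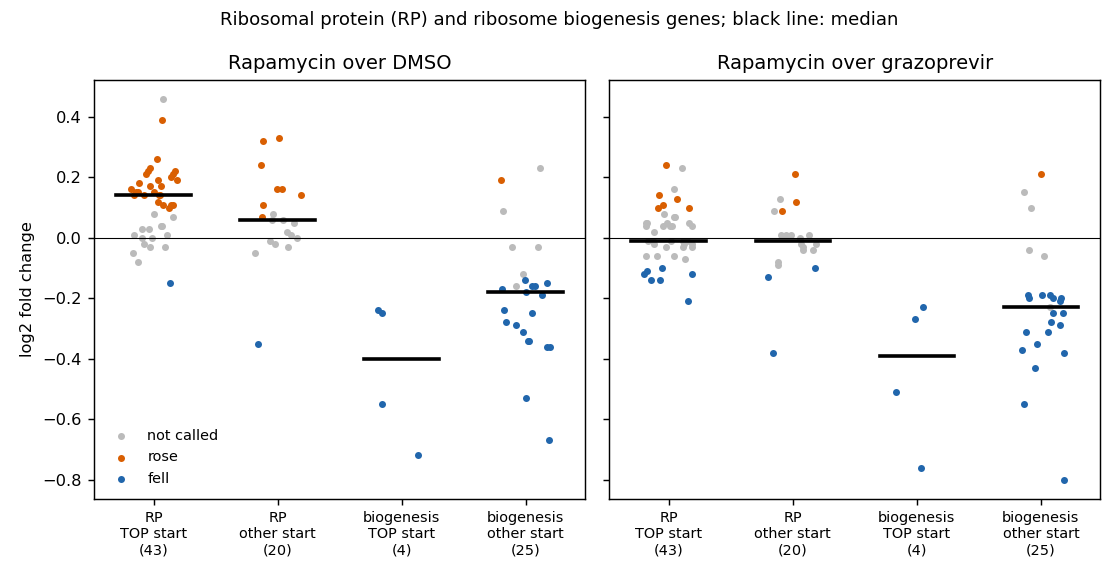
Log2 fold change (vertical axis) of ribosomal protein genes and ribosome biogenesis factors with and without a TOP start, against DMSO on the left and against grazoprevir on the right, 1 point per gene with a promoter window, black line for the median, orange for rises, blue for falls and grey for genes not called. A TOP start here is a match at the annotated first base only. Ribosomal protein genes with a TOP start have a median of 0.14 against DMSO and scatter around 0 against grazoprevir, while most biogenesis factors lie below 0 on both sides.

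Mitochondrial and proteasome genes shifted down slightly. Of 73 tested mitochondrial ribosomal proteins, 33 fell and 1 rose (median log2 fold change -0.15), 10 of the falls past a 1.2-fold threshold, led by *MRPS18B* (70, 68.7 and 72.2 CPM to 46.8, 50.1 and 49 CPM, -0.53 ± 0.055) and *MRPS22* (-0.48). Of 77 nuclear-encoded subunits of the respiratory chain and ATP synthase, 27 fell and 3 rose (median -0.06), with 2 falls past a 1.2-fold threshold. *UQCRC2* of complex III (-0.49), *SDHB* of complex II (-0.48) and *ATP5F1A* of the ATP synthase (-0.27) fell, but with the length and GC correction 9 members rose in place of 3, and 5 rose without rapamycin replicate C. Against grazoprevir 42 of the 77 fell. The proteasome had 14 falls and 2 rises in 32 genes (median -0.08), none past a 1.2-fold threshold, and 9 falls without rapamycin replicate C. *PSMA3*, a core subunit, was at -0.25, and *NFE2L1*, the transcription factor that drives proteasome genes, rose by 0.29.

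Lysosome and autophagy genes did not move as whole groups. Of 27 tested lysosome genes, 9 rose and 6 fell (median log2 fold change 0.05), and 4 rises and 1 fall held against a 1.2-fold threshold. The median was 0.09 without DMSO replicate 2 and 0.08 without rapamycin replicate C. *CTSD*, the protease cathepsin D, rose from 63.8, 62.7 and 70.1 CPM to 93, 93.1 and 93.8 CPM (0.51 ± 0.054, edgeR adjusted p = 8.95e-13), as did *CLCN7*, a chloride transporter (0.57 ± 0.075), and *TPP1*, a peptidase (0.38 ± 0.045). *GLA*, the alpha-galactosidase, fell from 184, 188 and 186 CPM to 141, 132 and 135 CPM (-0.45 ± 0.041). The proton pump of the lysosome had 4 rises and 1 fall in 16 subunits (median 0.01). In autophagy 9 of 30 genes rose and 5 fell (median 0.02; 3 fell without DMSO replicate 1, DMSO replicate 2 or rapamycin replicate B), with *ATG13* (0.46) and *WIPI2* (0.39), which act with *ULK1* in starting the process, higher and *GABARAPL1*, a membrane marker of autophagosomes, lower (-0.42). *TFEB*, the factor that drives these genes, was low at 4.18, 5.26 and 4.74 CPM with DMSO and 3.93, 2.78 and 2.45 CPM with rapamycin (-0.63 ± 0.21), and its call ended without DMSO replicate 2 and without rapamycin replicate B or C.

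TFEB is known to bind the E-box CACGTG, a palindrome that other factors such as MYC also bind. It was found in 9.7% of the 12604 promoter windows and in 9 of 17 lysosome genes with a window. Of those 9 genes 7 rose and 0 fell by edgeR, by DESeq2 or at an unadjusted p below 0.05 (median log2 fold change 0.35), while among the 8 lysosome genes without it 1 rose and 3 fell (median -0.05). Of 10 biogenesis factors with the motif 6 fell and 0 rose by any of these 3 counts, and of the 19 without it 16 fell and 1 rose. Over all 1223 genes with it 245 rose and 252 fell (median 0.00), so the same letters were in windows of genes that moved either way. Every match in the lysosome genes began before the start, while several in the biogenesis factors lay after it. No test was made of these counts. The windows of the pair of named lysosome genes that rose and hold it are given with the E-box in capitals.
CTSD, chr11:1763953-1763990, minus strand: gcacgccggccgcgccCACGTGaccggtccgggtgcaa
CLCN7, chr16:1475054-1475091, minus strand: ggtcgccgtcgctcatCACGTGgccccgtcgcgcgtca

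Targets of p53 rose almost throughout. Of 26 tested genes, 25 rose and 0 fell, with a median log2 fold change of 0.85 and medians of 0.81, 0.87 and 0.84 in rapamycin libraries A, B and C. The 0 falls in edgeR were also 0 at an unadjusted p below 0.05 and 0 with DESeq2. The summed level of the list was 1660 to 1713 CPM with DMSO and 3044 to 3094 CPM with rapamycin. Against a 1.2-fold threshold 23 of the 26 still rose. Beside *MDM2*, *CDKN1A* went from 38.7, 33.6 and 39.4 CPM to 105, 102 and 102 CPM (1.46 ± 0.059, edgeR adjusted p = 2.54e-35) and *TP53INP1* from 25.8, 27.7 and 25.4 CPM to 67.3, 61.3 and 63.3 CPM (1.28 ± 0.067). *BTG2*, an antiproliferative p53 target, rose from 34.2, 34.6 and 34.7 CPM to 74.5, 68.3 and 71.4 CPM (1.05 ± 0.06). The groups were far apart in each. *PLK2* was the 1 member not called (-0.11, named after its values were seen). *GDF15*, *SESN1* and *SESN2* are members of this list and of others above.

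Cell cycle genes moved in both directions. Among D and E cyclins and CDK inhibitors 9 of 21 rose and 3 fell (median log2 fold change 0.09, and 0.15 without DMSO replicate 3), with 5 rises without DMSO replicate 1. *CCND2*, cyclin D2, fell from 75.3, 67.2 and 66.5 CPM to 38.4, 38.6 and 36 CPM (-0.89 ± 0.06, edgeR adjusted p = 1.65e-21), while the retinoblastoma gene *RB1* (0.42) and *E2F3* (0.46) rose. Of 34 DNA replication and G1/S genes, 10 rose and 7 fell (median 0.04; 6 rose with no filter on low counts), with *LIG1*, a DNA ligase, higher by 0.66 and *MCM4* lower by 0.18 on the log2 scale. Of 30 G2/M genes, 5 rose and 7 fell (median 0.01; 10 rose with the length and GC correction), shares near those of all genes, and against grazoprevir 9 rose and 5 fell. Called members included the spindle checkpoint kinases *BUB1* (-0.39) and *BUB1B* (-0.41) and the mitotic kinase *AURKA* (-0.32), all lower. *MYC* was not called, at 205, 210 and 206 CPM with DMSO and 213, 213 and 209 CPM with rapamycin (0.03 ± 0.04, edgeR adjusted p = 0.574). *MXD4* (0.59) and *MXD1* (0.48), which compete with MYC for its partner MAX, rose.

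FOXO targets, which AKT keeps low, had 10 rises and 7 falls in 24 genes (median log2 fold change 0.08), of which 6 rises and 2 falls held against a 1.2-fold threshold. Members ranged from -1.40 to 1.46, and those named here all rose. The median was 0.13 without DMSO replicate 1, 0.05 without DMSO replicate 3 and 0.16 without rapamycin replicate B. *TXNIP*, an arrestin that limits glucose uptake, rose from 95.3, 93 and 87.2 CPM to 133, 124 and 118 CPM (0.45 ± 0.051), and *GADD45A*, a growth arrest gene that p53 also drives, from 26.6, 32.8 and 26.7 CPM to 47.7, 43.6 and 42.7 CPM (0.64 ± 0.072). *CDKN1A* and *SESN1* belong to this list and to that of p53 targets.

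Part of the interferon-stimulated genes rose. Of 23 tested genes, 11 rose and 1 fell (median log2 fold change 0.38). *IFIT2*, an RNA-binding antiviral protein, rose from 35.7, 35.2 and 30.8 CPM to 70, 68.4 and 69.9 CPM (1.03 ± 0.069, edgeR adjusted p = 5.14e-22), *IFIT1* from 58.6, 61.2 and 57.4 CPM to 94.5, 95.4 and 85.2 CPM (0.63 ± 0.058) and *IFIT3* from 11.1, 11 and 10.2 CPM to 20.5, 25.5 and 22.2 CPM (1.08 ± 0.11). The groups did not overlap in these. The interferon response element, searched as GAAA, any 2 bases and GAAA again on both strands, was in 12 of 17 members with a window and in 2.88% of all. Of the 12, 5 rose and 0 fell by edgeR (1 at an unadjusted p below 0.05, 0 with DESeq2; median 0.51), and of the other 5, 2 rose and 1 fell. Windows of 3 members that rose are shown with the element in capitals, which reads as its reverse complement on the strand printed.
IFIT1, chr10:89392491-89392532, plus strand: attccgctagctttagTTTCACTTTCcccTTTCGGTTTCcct
IFIT3, chr10:89327825-89327866, plus strand: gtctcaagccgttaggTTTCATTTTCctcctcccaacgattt
IFIH1, chr2:162318818-162318859, minus strand: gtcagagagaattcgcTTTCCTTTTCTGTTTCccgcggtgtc

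Most genes of the unfolded protein response rose, and more heat shock protein genes fell than rose. In the endoplasmic reticulum 17 of 21 genes of the unfolded protein response rose and 2 fell (median log2 fold change 0.27), and 5 rises held against a 1.2-fold threshold. *CALR*, the calcium-binding chaperone calreticulin, rose from 793, 786 and 792 CPM to 1190, 1124 and 1090 CPM (0.52 ± 0.03, edgeR adjusted p = 2.75e-25), followed by *PDIA4* (0.47 ± 0.035), *HSPA5*, also known as BiP (0.33 ± 0.029), and *HSP90B1* (0.27 ± 0.029). Among heat shock proteins of the cytosol and mitochondria, 10 of 21 fell and 4 rose (median -0.10, and -0.21 without rapamycin replicate A), with 5 falls and no rise past that threshold. The difference between the 2 lists was not tested. *HSPD1*, the mitochondrial HSP60, went from 2178, 2135 and 2114 CPM to 1570, 1496 and 1431 CPM (-0.52 ± 0.029), *HSP90AB1* from 2954, 2960 and 2853 CPM to 2153, 2047 and 2017 CPM (-0.50 ± 0.027) and *AHSA1*, an HSP90 activator, fell by 0.41 on the log2 scale. *HSPA1B* was at 695, 751 and 726 CPM against 340, 346 and 327 CPM (-1.10 ± 0.033), but it shares nearly all of its sequence with *HSPA1A*, so the division of reads between the copies is uncertain.

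Growth factor pathways beside mTOR were followed in short lists. Of all tested genes 17.2% rose and 16% fell. Of 12 TGF-beta and BMP targets, 8 rose and 1 fell (median log2 fold change 0.30). Of these, 4 rises and the 1 fall passed a 1.2-fold threshold. Members ranged from -1.05 to 0.84. *ID2*, an inhibitor of differentiation, rose from 99.2, 101 and 103 CPM to 159, 168 and 162 CPM (0.70 ± 0.048, edgeR adjusted p = 3.12e-21), together with *ID4* (0.62) and the feedback inhibitors *SMAD6* (0.84) and *SMAD7* (0.76). Of 14 YAP/TEAD targets, 8 rose and 1 fell (median 0.21), with members from -1.05 to 0.81. Past that threshold were 2 of the rises and the 1 fall. Members that rose included *AMOTL2* at 0.81, *ANKRD1* at 0.63 and *CCN1* at 0.41. ERK feedback genes went the other way, with 5 falls and 1 rise in 14 (median -0.26). Of these, 1 fall and no rise held against that threshold, and the falls numbered 2 without rapamycin replicate C and 3 without rapamycin replicate A. *SPRY1*, an inhibitor of ERK signalling, was at -0.31 (-0.25 and not called without rapamycin replicate C), and *DUSP4*, a phosphatase of ERK, at -0.81 (-0.52 and not called without DMSO replicate 1).

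**Figure D4:**
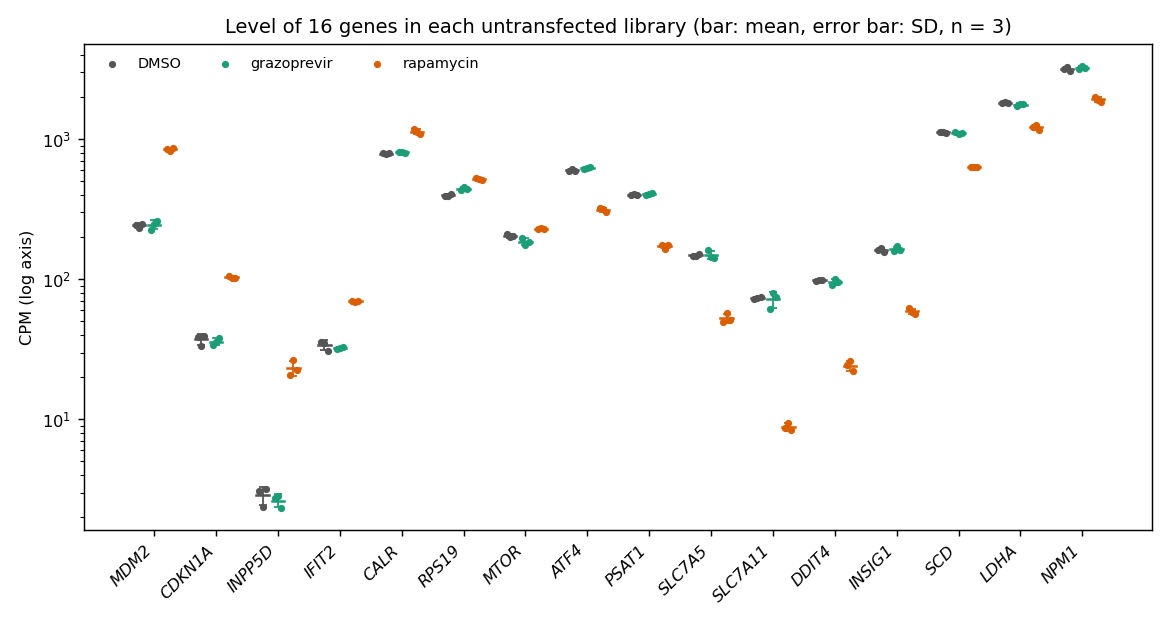
CPM of 16 genes (log axis) in each of the 9 untransfected libraries, points for libraries, short horizontal bars for the mean of 3 and error bars for the SD, with DMSO in grey, grazoprevir in green and rapamycin in orange. *MDM2*, *CDKN1A*, *INPP5D* and *IFIT2* lie higher and *ATF4*, *PSAT1*, *SLC7A5*, *SLC7A11*, *DDIT4* and *INSIG1* lower in all 3 rapamycin libraries than in the 6 others, while *MTOR* differs little.

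Against grazoprevir alone, the second untransfected reference, 6041 genes were called (33.6%), 3114 higher (17.3%) and 2927 lower (16.3%), and in 42% of genes the rapamycin libraries all lay above or all below the grazoprevir libraries. Changes of at least 2-fold were 215 rises (1.2%) and 327 falls (1.82%). This comparison has its own reference libraries but the same 3 rapamycin libraries, so it repeats the reference side only. The values of the leading genes were close to those against DMSO: *MDM2* at 1.79, *CDKN1A* at 1.52, *INPP5D* at 3.15, *SLC7A11* at -3.03, *DDIT4* at -1.99, *ATF4* at -0.99, *PSAT1* at -1.24, *INSIG1* at -1.47, *SCD* at -0.81, *HK2* at -0.93 and *NPM1* at -0.76 on the log2 scale. For lists, 23 of 26 p53 targets rose and 0 fell by edgeR, by DESeq2 or at an unadjusted p below 0.05 (median 0.81), 13 of 14 serine and one-carbon genes fell (-0.84), as did 15 of 16 tRNA synthetases (-0.47), 18 of 21 glycolysis genes (-0.28), 11 of 15 HIF targets (-0.45) and 17 of 24 cholesterol genes (-0.22). Interferon-stimulated genes had 10 rises and 1 fall (0.41) and the unfolded protein response 15 rises and 3 falls (0.23). Larger shifts between the references included *IFIH1* (1.21 against DMSO and 0.71 against grazoprevir), *ITIH4* (1.35 and 0.86), *ZNF582* (1.17 and 0.77), *IGSF10* (-1.57 and -1.04) and *NTRK2* (-1.71 and -1.30). In each of these 5 the direction and the call were the same against both groups, and the difference between the references was not tested here. The highest value among p53 targets was 3.26 against DMSO, that of *GDF15*, and 2.62 against grazoprevir.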

How the data were processed

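Raw counts per gene were used as the authors deposited them in 1 table. Per the labels' protocols, TRIzol served for extraction, oligo(dT) beads for poly(A) selection and random primers for cDNA. The submitters' processing notes name hg38, HISAT2 2.2.1, HTSeq 0.6.1, cutadapt 1.9.1 and DESeq2 1.44.0, with no role or order, and how reads were assigned to strands is not given in the sources used here. Of 59251 genes, 19852 held no count in any library.

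Counts were fitted in R 4.3.3 with edgeR 4.0.16 (filterByExpr, TMM factors, robust quasi-likelihood). All 18 libraries entered 1 fit with 6 group means and 12 residual degrees of freedom (common biological coefficient of variation 4.15%), which left 17966 genes with 99.84% of all counts. Adjusted p-values are Benjamini-Hochberg values over all tested genes of 1 comparison. The standard error (SE) was taken as the size of the log2 fold change over the root of F. The code was tested on simulated data. Pairs of rapamycin libraries differed by a chi-square per gene of 2.05 to 2.96, above sampling noise.

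The text names the 12 genes that rose most and the 12 that fell most, if called, at 5 CPM or more in the group with more and without overlap between groups, up to 4 called members of each list by adjusted p, and a fixed set of 20 pathway and reference genes. Among the largest changes, numbered loci, pseudogenes, read-through genes and shared-read copies were left out. Some genes that meet the rule are not reported here. The members, the 45 lists and these rules were chosen with earlier results of these data known. Of 1043 symbols, 991 matched as written, 35 through another symbol and 17 not at all. The list of mitochondrially encoded mRNAs had no match.

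Alternatives were median-of-ratios factors, library-size scaling alone, DESeq2 1.42.0, glmTreat with a 1.2-fold change as its threshold, 1 CPM in 3 libraries as the filter, no filter at all, only the 6 libraries compared, removal of trends with GC content and transcript length per library, and leaving out each library. Promoter windows and gene positions are from RefSeq (GRCh38.p14), and 12604 tested genes had a window. Plots were made in Python 3.11.15 (matplotlib 3.10.9).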

Additional observations from a re-analysis of the deposited data

How the results depend on the processing

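Testing against a 1.2-fold change gave the largest drop in calls: 1406 genes against DMSO (591 higher, 815 lower) and 1439 against grazoprevir (636 higher, 803 lower). With 1 library left out, calls numbered 5034 to 5321 against DMSO (2584 to 2678 higher, 2388 to 2643 lower) and 5052 to 5796 against grazoprevir (2605 to 2987 higher, 2385 to 2809 lower), with fewer samples in each fit. Under the other alternatives named in the processing summary the number of calls stayed within 1.5 times the value reported. Of 185 named genes called against DMSO, 120 kept their call against a 1.2-fold change, and 20 lost it in at least 1 other alternative. Signs turned in some small values, and the cause was not tested. List medians near 0 against DMSO that turned included the following. The length and GC correction gave -0.02 for mTOR complex subunits, -0.01 for insulin and PI3 kinase signalling, -0.05 for immediate early genes and -0.02 for HEK-293 markers. With 1 library left out, mTORC1 effectors reached 0.01, immediate early genes -0.10, and G2/M genes and the proton pump -0.01. The MYC and MAX network went from -0.00 to 0.03 without rapamycin replicate B. Among single genes against DMSO, *RICTOR* gave 0.00 when scaled by library size only, 0.04 after the length and GC correction, and -0.04 to 0.03 with 1 library left out (0.00 without DMSO replicate 1, 0.03 without DMSO replicate 2, 0.02 without rapamycin replicate A). With the length and GC correction *IRS2* gave -0.08 and *IRS4* -0.02. Against grazoprevir, that correction gave -0.07 for *AKT1S1*, 0.00 for *FKBP1A*, -0.01 for *SESN2* and -0.17 for *IRS2*. With 1 library left out *AKT1S1* gave -0.02 (without grazoprevir replicate 2) to 0.10, and *IRS2* gave -0.03 (without grazoprevir replicate 1) to 0.14, with -0.02 without rapamycin replicate B. The median of the epithelial markers gave 0.24 with a filter of 1 CPM in 3 libraries. The length and GC correction covered 85.5% of tested genes. Across 10006 genes at 10 CPM or more, Spearman's rho of the log2 fold change was 0.23 with GC content and 0.076 with transcript length, a relation across genes, which are not independent replicates. No paired analysis was possible because the 3 rapamycin columns carry no replicate numbers of their own. Genes with few counts, such as *GDF15*, have wide errors, and a difference not called was not detectable at this depth.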

Other observations

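Further gene groups were compared between the rapamycin and DMSO libraries, and not all of them shifted as whole groups. Of 14 NRF2 targets, 9 fell and 2 rose (median log2 fold change -0.42), against 16% and 17.2% of all tested genes, and *SLC7A11* is also a member of this list. *HMOX1*, the haem-degrading oxygenase, went from 17.9, 14.9 and 18.6 CPM to 8.3, 8.81 and 6.52 CPM (-1.12 ± 0.11, edgeR adjusted p = 7.95e-14), *FTL*, the ferritin light chain, from 280, 295 and 286 CPM to 200, 201 and 194 CPM (-0.53 ± 0.036), and *ME1*, an enzyme that makes NADPH, was at -0.50. Both iron-handling genes were lower in every rapamycin library than in any DMSO library. Host genes of small nucleolar RNAs had 6 falls and 2 rises in 19, and 0 of either against a 1.2-fold change. Their median was -0.05, and -0.09, -0.11 and -0.10 without DMSO replicate 1, DMSO replicate 2 or rapamycin replicate B, with *SNHG1*, *GAS5*, *SNHG5* and *SNHG3* between -0.30 and -0.26, and 9 falls and 0 rises against grazoprevir by edgeR (1 at an unadjusted p below 0.05, 0 with DESeq2).

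Replication-dependent histone mRNAs mostly lack the poly(A) tail on which these libraries were selected, and their copies share sequence, so their counts are uncertain. Of 19 listed genes that were found, 11 could be tested, and 6 rose and 1 fell (median 0.53, 0.80 without DMSO replicate 1 and 0.84 without rapamycin replicate A). *H2BC12* went from 34.9, 37.1 and 33.7 CPM to 51, 50.9 and 46.3 CPM (0.49 ± 0.072, edgeR adjusted p = 5.35e-08). The rises numbered 3 without DMSO replicate 2. Immediate early genes had 6 rises and 6 falls in 26 (median 0.01, and -0.10 without DMSO replicate 1), against 17.2% and 16% of all tested genes. They did not move in 1 direction: *BTG2* and *IER5* (0.26) were higher, and *DUSP5*, a phosphatase that inactivates ERK, was lower at -0.97.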
